A study of Mus musculus with 3 samples.

Results

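The ATP-binding cassette (ABC) transporter genes of isolated mouse brain vessels were compared across 3 libraries. A gene was taken as a member when its symbol read Abc, a letter from a to g and a digit, which gave 50 of the 29917 genes measured, in 7 subfamilies. Subfamily A had 16 members, B 10, C 10, D 4, E 1, F 3 and G 6. Polyadenylated RNA of vessels from whole brains of males aged 3 months was sequenced, with the vessels of 3 mice pooled into 1 library for each group. The groups were C57BL6 WT, C57BL6-BALB/c WT and Cx30-/-. Cx30-/- mice lack Connexin 30, a gap junction protein of astrocyte endfeet, in every cell and not in astrocytes alone. For the Cx30-/- library the sample labels give a C57BL6 background and the methods of the study a mixed C57BL6/Balbc background, so both WT libraries were used as controls. No group has a replicate library, so differences between groups cannot be set against a spread between animals, and genotype cannot be told apart from preparation.

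ABC proteins bind and hydrolyse ATP at paired nucleotide-binding domains and use it to move drugs, lipids, bile acids or other substrates across a membrane. Full transporters carry both domains in a single chain, and the others assemble from a pair of chains that carry 1 domain each. In brain capillaries P-glycoprotein, encoded in mice by Abcb1a and Abcb1b, and the breast cancer resistance protein Abcg2 sit in the luminal membrane of endothelial cells and return many drugs to the blood.

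The deposited counts summed to between 50375426 and 60725557 per library. They are counts of alignments overlapping the exons of a transcript, and a read on an exon that transcripts share was counted for each of them. For each gene the transcript row with the largest total was taken, and its counts were scaled by size factors of 0.926 to 1.15, set by the median ratio of all genes. Gjb6, the gene of Connexin 30, had a normalized count of 2531 in C57BL6 WT, 2426 in C57BL6-BALB/c WT and 101 in Cx30-/-, which is the direction of the labels. The libraries differed in the markers of several cell types. The summed normalized counts of 10 endothelial markers were 107562 in C57BL6 WT, 63977 in C57BL6-BALB/c WT and 122571 in Cx30-/-, and each of the 10 was lowest in C57BL6-BALB/c WT and highest in Cx30-/-. The 8 neuronal markers summed to 82430 in C57BL6 WT, 104422 in C57BL6-BALB/c WT and 57915 in Cx30-/-. The 6 choroid plexus markers summed to 147031, 57269 and 77456 in the same order of libraries, of which Ttr alone gave 137638, 52930 and 71366. The sums of 6 erythroid markers were 6547, 3819 and 15648, and those of 6 neutrophil markers 530.0, 501 and 1556. Most of the erythroid sums came from Hbb-bs, with 5652, 3354 and 13725. Ltf was the 1 neutrophil marker that was not highest in Cx30-/-, with 72.5, 219 and 152. No marker of the 11 cell type lists was at 0 in any library. In such bulk samples fewer cells of a type and less RNA per cell cannot be told apart.

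All members but 2 carried a sequence motif of the ATP-binding domain. ABC genes are named for that domain, so a high share of members with the motif was set in advance by the choice by symbol. The Walker A motif binds the phosphates of ATP and was searched in the coding sequences as a glycine, any pair of residues, a glycine, any residue, a glycine, a lysine and then a serine or threonine. It was present in 48 of the 50 members, against 2.15% of 21562 protein-coding genes in the GENCODE M21 annotation (GRCm38). Among the 65 genes with at least 2 copies, 35 were members. The 16 members of subfamily A, the 10 of subfamily C, the 1 of subfamily E and the 3 of subfamily F had 2 copies each. The 4 members of subfamily D had 1 copy each. Subfamily B was split into 5 members with 2 copies (Abcb1a, Abcb1b, Abcb4, Abcb5 and Abcb11) and 5 with 1 copy. In subfamily G, 4 members had 1 copy, and these letters were not found in Abcg3 and Abcg8. The coding sequences of the motif are shown for the 5 members with the highest levels in these vessels and for Abcc9, because they show how full transporters differ from the single-domain Abcg2. Capitals mark the codons of the residues that the motif fixes.
Abcc5, copy 1: GGCagtgtgGGAagtGGAAAAACC
Abcc5, copy 2: GGAcgaacaGGGtcaGGGAAGTCC
Abcb1a, copy 1: GGCaacagtGGCtgtGGAAAAAGC
Abcb1a, copy 2: GGCagcagtGGCtgcGGGAAGAGC
Abcg2, copy 1: GGAcccacaGGCggaGGCAAGTCT
Abca2, copy 1: GGCcacaacGGGgccGGCAAGACC
Abca2, copy 2: GGTgtcaatGGTgcaGGGAAGACC
Abcc4, copy 1: GGCccagttGGAgcaGGCAAGTCG
Abcc4, copy 2: GGCagaaccGGAgctGGGAAAAGC
Abcc9, copy 1: GGCcaagtgGGTtgtGGAAAATCA
Abcc9, copy 2: GGTcgaactGGCagtGGGAAGTCC

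Of the 50 members, 40 reached 50 normalized counts in at least 1 library. The other 10 stayed under this minimum in all 3 libraries. They were Abca12, Abca13, Abca14, Abca15, Abca16, Abcb5, Abcb11, Abcc2, Abcg5 and Abcg8. Among them are the bile salt export pump Abcb11, the hepatic conjugate pump Abcc2 (9.44 to 11.9 normalized counts) and the sterol transporters Abcg5 and Abcg8, which work as a pair in liver and intestine. Abca16 and Abcb5 had 0 counts in every library, which allows up to 3 counts in each, and no value of the 10 was above 20.96 normalized counts.

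Levels between genes were compared as normalized counts per kb of transcript, by the deposited lengths. Abcc5, a pump for cyclic nucleotides and other organic anions, had the highest mean level (1844 per kb). It had 1837 per kb in C57BL6 WT, 2457 in C57BL6-BALB/c WT and 1238 in Cx30-/-. Abcb1a followed with 1716 per kb in C57BL6 WT, 1012 in C57BL6-BALB/c WT and 2304 in Cx30-/-, a mean of 1677. The order of these genes thus depended on the library, with Abcc5 above Abcb1a in both WT libraries and below it in Cx30-/-. Abcg2 had 1239, 704 and 1431 per kb in C57BL6 WT, C57BL6-BALB/c WT and Cx30-/-, a mean of 1125. Abca2, a lipid transporter of endosomes and lysosomes known from oligodendrocytes, had 1084, 1346 and 923 per kb in the same order, a mean of 1118. Abcg2 and Abca2 were above and below each other in different libraries. Abcc4, an organic anion pump of the capillary endothelium, had 719, 481 and 926 per kb, a mean of 708. These levels placed Abcc5 above 96.9%, Abcb1a above 96.3%, Abcg2 above 92.4%, Abca2 above 92.3% and Abcc4 above 83.6% of the 14979 genes that reached the minimum. Abcb1a, Abcg2, Abcc4 and Abcc5 together held 35.7% of the members' summed mean normalized counts.

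**Figure D1:**
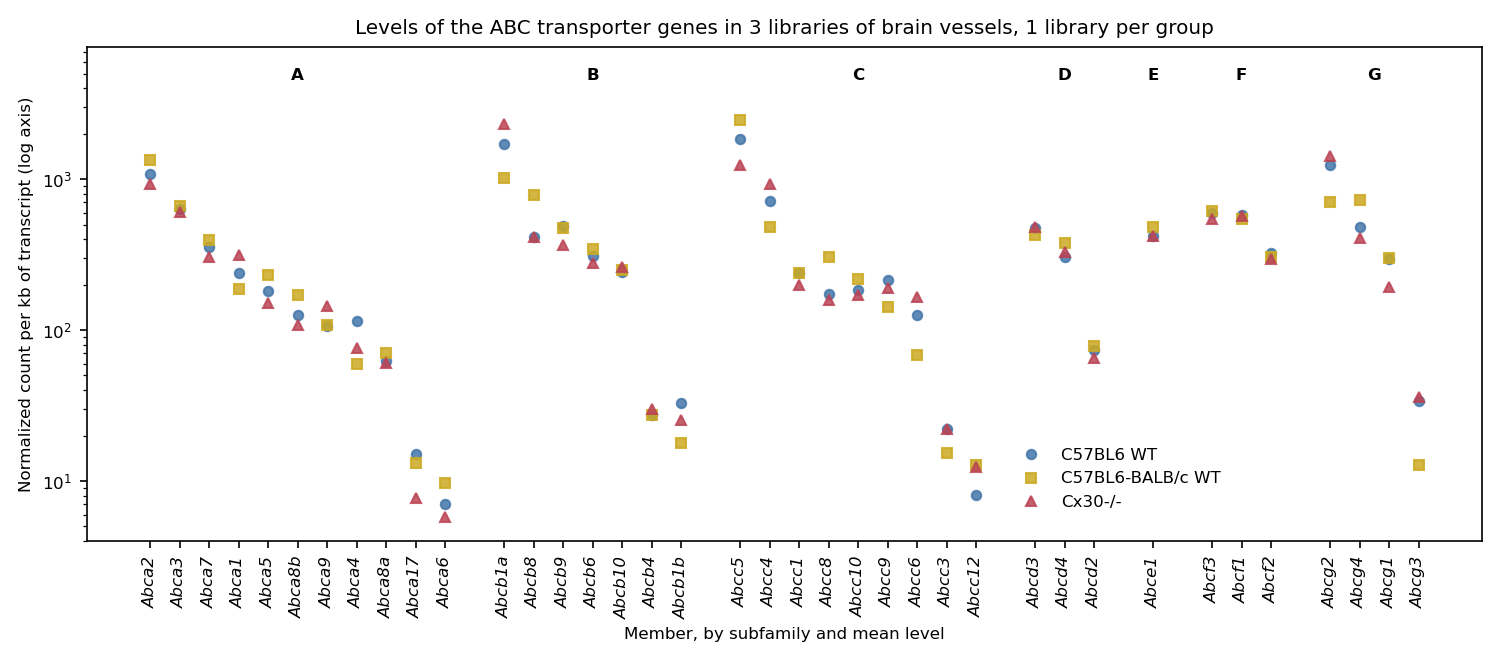
Normalized count per kb of transcript (vertical log axis) of 38 of the 40 members that reached the minimum, by subfamily A to G, with a point for each of the 3 libraries (circles, C57BL6 WT; squares, C57BL6-BALB/c WT; triangles, Cx30-/-). Mean levels run from 7.50 per kb for Abca6 to 1844 for Abcc5, and the points of subfamilies D, E and F lie close together, while those of Abcb1a, Abcg2, Abcc4, Abcc6 and Abcg3 are lowest in C57BL6-BALB/c WT.

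The subfamilies differed in how their levels were spread. Among the members that reached the minimum, the median level was 135 per kb in subfamily A (11 members), 280 in B (8 members), 191 in C (9 members), 328 in D (4 members), 562 in F (3 members) and 401 in G (4 members), and the 1 member of E had 440.1 per kb. Subfamilies D, E and F ranged from 72.2 to 587 per kb. In subfamily C the range was from 11.1 per kb for Abcc12 to 1844 for Abcc5, and in B from 25.4 for Abcb1b to 1677 for Abcb1a.

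The question of the design was which transcripts differed in Cx30-/- vessels from both WT libraries. A call required a ratio of 2 or more between the libraries, with 50 or more normalized counts in either of them. Against C57BL6 WT, 0 of 39 members were called, where 2.68% of all genes past the minimum were called in either direction and 1.26% as lower in Cx30-/-. Against C57BL6-BALB/c WT, 4 of 40 members were called, all of them higher in Cx30-/- (Abcg3, Abcc6, Abcb1a and Abcg2). The background was 8.69% of genes called in either direction, 3.96% higher and 4.73% lower. Between the WT libraries, 1 of 40 members was called, Abcg3, which was lower in C57BL6-BALB/c WT, against 2.02% of genes called lower, 1.41% higher and 3.43% in either direction. No member was called in the same direction against both WT libraries, where 1.42% of all genes were.

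The median log2 ratio of the members was -0.10 for Cx30-/- against C57BL6 WT, -0.15 against C57BL6-BALB/c WT and 0.03 between the WT libraries, where the medians of all genes were -0.00461, 0.00399 and 0.000352. The 95% interval of read sampling excluded a ratio of 1 for 24 of 39, 33 of 40 and 25 of 40 members in these comparisons. For all genes it did so for 54.0%, 71.8% and 64.4%. These intervals hold the counting error of reads alone, without that between animals or vessel preparations. The comparisons share libraries, so their values are given side by side and are not independent.

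**Figure D2:**
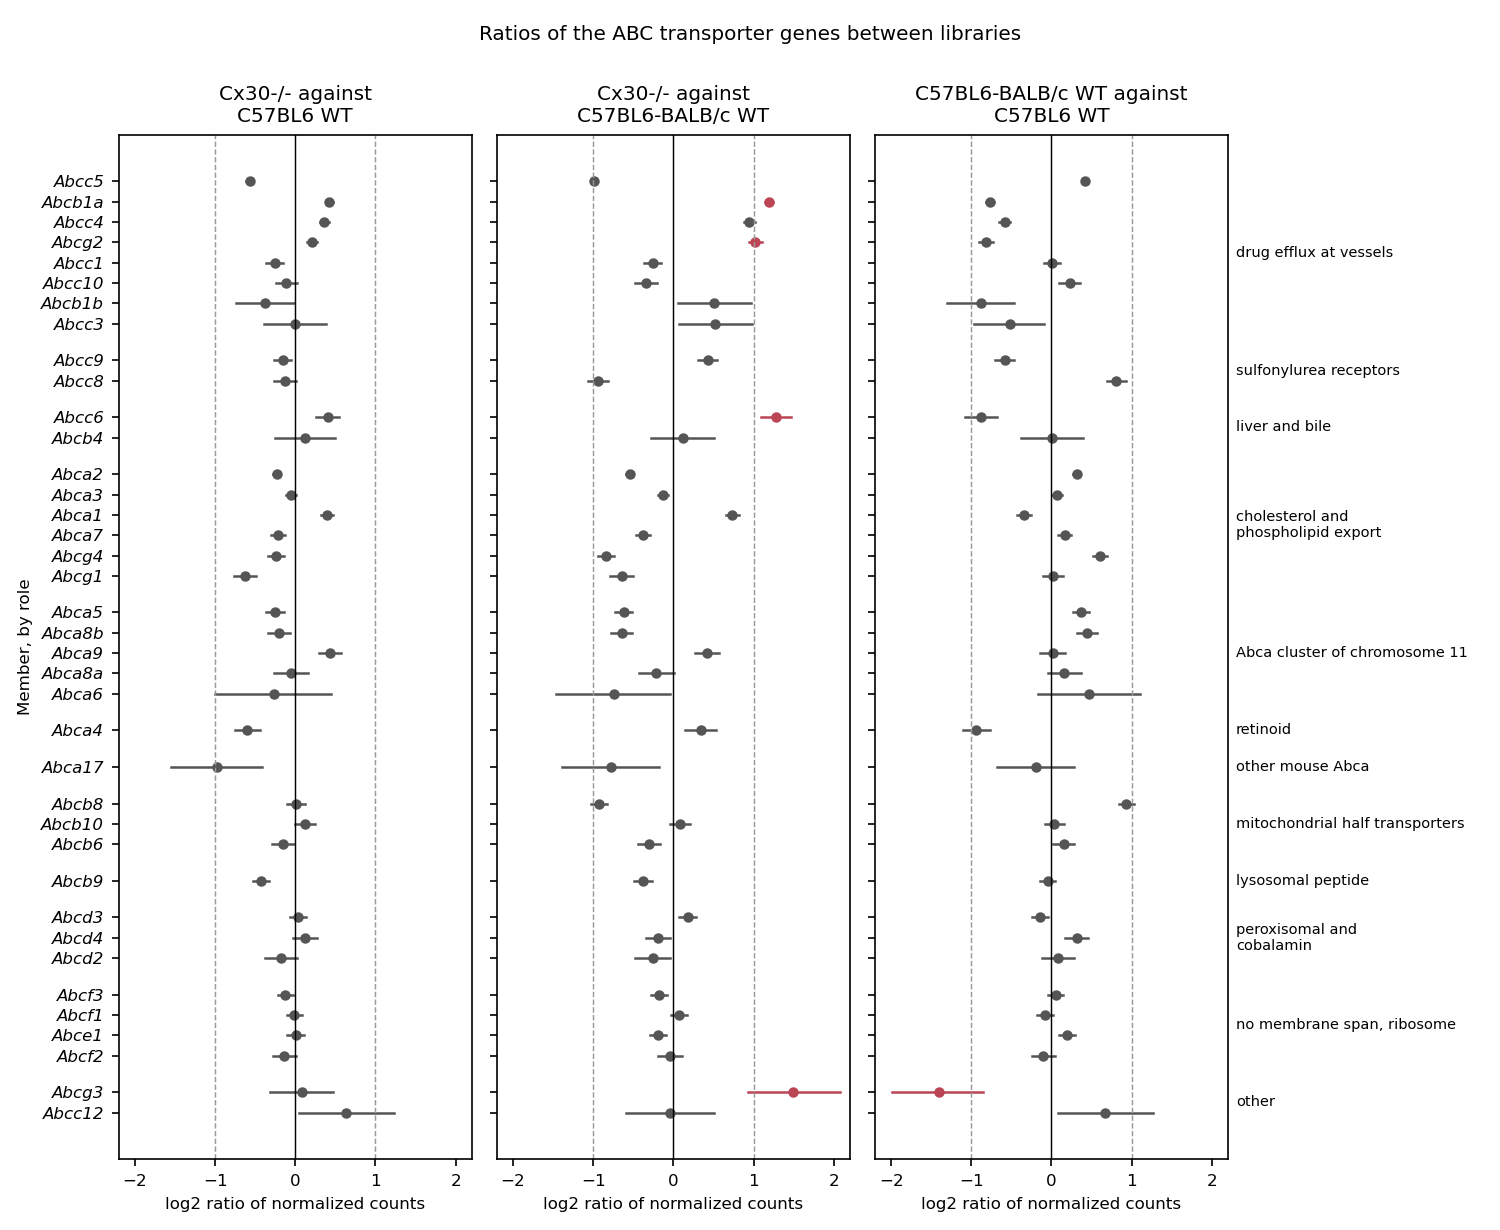
Log2 ratio of normalized counts with its 95% interval of read sampling (points and horizontal lines) for 38 of the 40 members that reached the minimum in at least 1 library, grouped by role, in the 3 comparisons. Dashed lines mark a ratio of 2 in either direction and red marks the called members, of which the left panel has 0, the middle panel 4 and the right panel 1.

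Among the drug efflux pumps, Abcb1a, Abcg2 and Abcc4 were highest in Cx30-/- and lowest in C57BL6-BALB/c WT, and Abcc1, Abcc5 and Abcc10 were lowest in Cx30-/-. Of the 8 genes listed, 4 were higher and 4 lower in Cx30-/- than in C57BL6 WT, and none was called, where 2.68% of all genes were. Against C57BL6-BALB/c WT, 5 were higher, of which Abcb1a and Abcg2 were called, and 3 were lower. Of all genes, 3.96% were called higher in this comparison. The summed level of the list was nearly level across the libraries, with 29304 normalized counts in C57BL6 WT, 26717 in C57BL6-BALB/c WT and 30068 in Cx30-/-.

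Abcb1a (chr5:8660077-8748575, plus strand, GRCm38; 28 exons) had a normalized count of 8577 in C57BL6 WT, 5055 in C57BL6-BALB/c WT and 11514 in Cx30-/-. Against C57BL6 WT its log2 ratio in Cx30-/- was 0.42, with a 95% interval from 0.39 to 0.46, and against C57BL6-BALB/c WT it was 1.19 (1.14 to 1.24). The WT libraries themselves differed by -0.76 (-0.81 to -0.71), a larger distance than that between Cx30-/- and C57BL6 WT. An antisense gene model covers 4.84% of the exon bases of Abcb1a, and the library kit does not mark strand. Abcg2 (chr6:58584523-58695676, plus strand; 16 exons in the row used) had 3167, 1801 and 3657 normalized counts in C57BL6 WT, C57BL6-BALB/c WT and Cx30-/-. Its log2 ratios in Cx30-/- were 0.21 (0.14 to 0.27) and 1.02 (0.94 to 1.11), so that the second interval reached below 2-fold. The row used for Abcg2 is annotated as a target of nonsense-mediated decay. The 10 rows of Abcg2 past the minimum, protein-coding ones among them, gave log2 ratios from 0.91 to 1.23 against C57BL6-BALB/c WT.

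Abcc4 (chr14:118482692-118706219, minus strand; 31 exons) had the same order of libraries, with 4110 normalized counts in C57BL6 WT, 2747 in C57BL6-BALB/c WT and 5289 in Cx30-/-. Its log2 ratio was 0.36 (0.31 to 0.42) relative to C57BL6 WT and 0.95 (0.88 to 1.01) relative to C57BL6-BALB/c WT, just under the threshold. Abcc5 (chr16:20331303-20426394, minus strand; 30 exons) went the other way, with 10675 normalized counts in C57BL6 WT, 14280 in C57BL6-BALB/c WT and 7195 in Cx30-/-. Its log2 ratios in Cx30-/- were -0.57 (-0.61 to -0.53) and -0.99 (-1.03 to -0.95), the second also just under the threshold. The pumps for conjugated and other organic anions Abcc1 and Abcc10 had smaller differences, with log2 ratios of -0.26 and -0.11 against C57BL6 WT and of -0.26 and -0.34 against C57BL6-BALB/c WT. Abcc3 had 110.0, 76.7 and 110.2 normalized counts in the 3 libraries, the first and the last being nearly equal.

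Abcb1b, the second mouse gene of P-glycoprotein, was far lower than Abcb1a, with 141 normalized counts in C57BL6 WT, 76.7 in C57BL6-BALB/c WT and 109 in Cx30-/-. Its log2 ratio in Cx30-/- was -0.37 (-0.74 to -0.01) relative to C57BL6 WT and 0.51 (0.06 to 0.96) relative to C57BL6-BALB/c WT. The coding sequences of Abcb1a and Abcb1b were identical at 88.0% of 3819 aligned bases. Reads of 50 bases that fit both genes were removed by the authors. Of the 4948 windows of 50 bases in the Abcb1a transcript, 922 (18.6%) also occurred in transcripts of other genes, 768 of them in Abcb1b, and 836 of 4257 (19.6%) windows of Abcb1b were shared. Reads that lie wholly in the 768 windows common to Abcb1a and Abcb1b are thus missing from the counts of both genes. The windows were compared without mismatches, so reads that the aligner placed on both genes with a mismatch are not covered by these figures. The longest shared run held 338 bases, at coding positions 1357 to 1694 of Abcb1a and 1366 to 1703 of Abcb1b. A read of 50 bases that lies wholly in this run fits both genes. The part of the run from coding position 1519 to 1653 of Abcb1a is shown as an example. It lies in the first nucleotide-binding domain, and capitals mark the ABC signature motif.
Abcb1a and Abcb1b: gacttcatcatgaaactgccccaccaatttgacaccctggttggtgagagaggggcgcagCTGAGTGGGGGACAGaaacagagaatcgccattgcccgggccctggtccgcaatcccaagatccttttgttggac

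The sulfonylurea receptors Abcc8 and Abcc9 do not pump substrates but are the regulatory subunits of ATP-sensitive potassium channels. Abcc9 (chr6:142587862-142702315, minus strand; 41 exons), whose product SUR2 joins the pore subunit encoded by Kcnj8 in vascular mural cells, had a normalized count of 1606 in C57BL6 WT, 1070.4 in C57BL6-BALB/c WT and 1439 in Cx30-/-. Its log2 ratio in Cx30-/- was -0.16 (-0.26 to -0.06) relative to C57BL6 WT and 0.43 (0.31 to 0.55) relative to C57BL6-BALB/c WT. Kcnj8 gave normalized counts of 1057, 539 and 786 in the same order, with log2 ratios of -0.43 and 0.54, so that both subunits were lowest in C57BL6-BALB/c WT and highest in C57BL6 WT. The mural markers did not share this order. The 8 pericyte markers, Kcnj8 among them, summed to 69016, 45488 and 75199 and were highest in Cx30-/-. The 6 smooth muscle markers summed to 40211, 59440 and 54160, lowest in C57BL6 WT. The part of mural cells in the level of Abcc9 was not tested. Abcc8, whose product SUR1 is known from neurons and pancreatic beta cells, had 862, 1512 and 789 normalized counts and was highest in C57BL6-BALB/c WT. Its log2 ratio was -0.13 (-0.27 to 0.01) relative to C57BL6 WT and -0.94 (-1.07 to -0.81) relative to C57BL6-BALB/c WT.

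Of the 7 members that export cholesterol and phospholipids, 6 reached the minimum, and 5 of these 6 were lower in Cx30-/- than in either WT library, with 0 called. Of all genes, 36.6% were lower in Cx30-/- than in both, and 2.68% were called against C57BL6 WT and 8.69% against C57BL6-BALB/c WT. The list summed to 20333 normalized counts in C57BL6 WT, 23294 in C57BL6-BALB/c WT and 18686 in Cx30-/-. Abca1, which loads cholesterol onto apolipoproteins, was the exception. It had 2435, 1925 and 3208 normalized counts in C57BL6 WT, C57BL6-BALB/c WT and Cx30-/-, and its log2 ratios in Cx30-/- were 0.40 (0.32 to 0.47) and 0.74 (0.65 to 0.82). Abcg1, which passes cholesterol to lipoprotein particles, had 1073, 1089.8 and 698 normalized counts, and its log2 ratios were -0.62 (-0.76 to -0.48) and -0.64 (-0.79 to -0.50). The WT libraries were 0.02 apart for this gene. The related Abcg4, known from neurons and astrocytes, had 1669, 2531 and 1409.9 normalized counts, with log2 ratios of -0.24 (-0.34 to -0.14) and -0.84 (-0.94 to -0.75). Abca2 had normalized counts of 8705, 10816 and 7416, its log2 ratios being -0.23 (-0.28 to -0.19) and -0.54 (-0.59 to -0.50). Abca3, the surfactant lipid transporter of the lung, had 4083, 4277 and 3917 normalized counts, so that its libraries lay within a log2 ratio of 0.13. Its log2 ratio in Cx30-/- against C57BL6 WT was -0.06 (-0.122 to 0.002), an interval that includes equal levels. Antisense transcripts cover 14.1% of the exon bases of Abca3 and also overlap Abca8b, Abcb1b, Abcb9, Abcb10, Abcc9 and Abcc10. Abca7, a phospholipid transporter and a risk gene of Alzheimer's disease, had normalized counts of 2366, 2651 and 2036 in the order above.

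The Abca genes that lie side by side on chromosome 11 (Abca5, Abca6, Abca8a, Abca8b and Abca9) gave log2 ratios from -0.25 to 0.43 against C57BL6 WT for the 4 past the minimum and from -0.74 to 0.42 against C57BL6-BALB/c WT, with 0 called in either. Of all genes, 2.68% and 8.69% were called in these comparisons. Abca5, a lysosomal protein, had a normalized count of 1484 in C57BL6 WT, 1914 in C57BL6-BALB/c WT and 1246 in Cx30-/-. Abca8b had 929, 1262 and 806 and its neighbour Abca8a 353, 394 and 339.9 normalized counts in the same order. Their coding sequences were identical at 73.8% of aligned bases with a longest shared run of 97 bases, and the log2 ratios against C57BL6-BALB/c WT were -0.65 (-0.78 to -0.51) for Abca8b and -0.21 (-0.43 to 0.01) for Abca8a. Abca9 was the only gene of the cluster that was higher in Cx30-/- than in both WT libraries, with normalized counts of 684, 691 and 923. Its log2 ratios in Cx30-/- were 0.43 and 0.42.

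Abca4, the retinoid transporter of photoreceptors, had a normalized count of 831 in C57BL6 WT, 434 in C57BL6-BALB/c WT and 549.7 in Cx30-/-. Its log2 ratio in Cx30-/- was -0.60 (-0.75 to -0.44) relative to C57BL6 WT and 0.34 (0.15 to 0.53) relative to C57BL6-BALB/c WT, and the WT libraries were -0.94 apart. All 6 choroid plexus markers had the same order of libraries as Abca4, with log2 ratios in Cx30-/- from -0.95 to -0.41 and from 0.34 to 0.89, and their part in the level of Abca4 was not tested. The order was not particular to them. It was seen in 4 of 39 members (Abca4, Abcb1b, Abcc9 and Abcf1), or 10.3%, where 13.8% of all genes had it. The summed microglia markers had it as well, as did 4 of the 6 singly. Abca17, one of the rodent Abca genes, had 80.3, 70.2 and 40.9 normalized counts and was lower in Cx30-/- by a log2 ratio of -0.97 (-1.55 to -0.42) and -0.78 (-1.39 to -0.18). Abca13 had normalized counts of 20.96, 2.16 and 13.6, all under the minimum.

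None of the 4 members of the mitochondrial membranes was called. Of all genes, 2.68% were called against C57BL6 WT, 8.69% against C57BL6-BALB/c WT and 3.43% between the WT libraries. Abcb8, a subunit of a mitochondrial potassium channel, had a normalized count of 1266 in C57BL6 WT, 2419 in C57BL6-BALB/c WT and 1272.5 in Cx30-/-. The mixed WT library therefore stood apart, with a log2 ratio of 0.93 (0.84 to 1.03) against C57BL6 WT, while Cx30-/- and C57BL6 WT were 0.01 (-0.10 to 0.12) apart. The 8 rows of Abcb8 ran from 0.78 to 1.71 between the WT libraries, so some of its rows passed 2-fold. Abcb10, which takes part in haem synthesis and is known from red cell precursors, had normalized counts of 1041, 1068 and 1132. The part of the erythroid markers given above in this level was not tested. Abcb6, a porphyrin transporter, had 909.9, 1011 and 818 normalized counts and log2 ratios in Cx30-/- of -0.15 (-0.29 to -0.02) and -0.31 (-0.44 to -0.17). The gene model Gm29253 on the same strand covers 93.6% of the exon bases of Abcb6, so reads of the genes cannot be told apart. The lysosomal peptide transporter Abcb9 had 1790.1, 1732.5 and 1332 normalized counts, and its log2 ratios were -0.43 (-0.53 to -0.32) and -0.38 (-0.49 to -0.27).

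The 4 members of subfamily D, which carry fatty acids into peroxisomes or, in the case of Abcd4, cobalamin out of lysosomes, gave log2 ratios from -0.26 to 0.18 in both Cx30-/- comparisons. Abcd3, a peroxisomal membrane protein that takes up branched-chain fatty acids, had 1599.7, 1447 and 1637 normalized counts in C57BL6 WT, C57BL6-BALB/c WT and Cx30-/-. Subfamilies E and F have nucleotide-binding domains but no membrane span and act on ribosomes. The ribosome recycling factor Abce1 had 1484, 1697 and 1487 normalized counts, Abcf1 1807, 1709.8 and 1789 and Abcf3 1842, 1912 and 1691. Together with Abcf2 they ranged from -0.19 to 0.07 in the log2 ratio in both Cx30-/- comparisons. For these members of subfamilies D, E and F the interval of read sampling excluded a ratio of 1 for 2 of 8 genes against C57BL6 WT and for 6 of 8 against C57BL6-BALB/c WT. The shares of all genes were 54.0% and 71.8%.

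Of the 6 members known from liver and bile, only Abcc6 and Abcb4 reached the minimum. Abcc6 (chr7:45967555-46030302, minus strand; 31 exons), whose loss causes pseudoxanthoma elasticum, had a normalized count of 623 in C57BL6 WT, 339 in C57BL6-BALB/c WT and 822 in Cx30-/-. Its log2 ratio in Cx30-/- was 0.40 (0.25 to 0.55) relative to C57BL6 WT and 1.28 (1.09 to 1.47) relative to C57BL6-BALB/c WT. The phospholipid flippase Abcb4 had 112, 112 and 122 normalized counts. Abcg3, a rodent gene related to Abcg2, had a normalized count of 103 in C57BL6 WT, 38.9 in C57BL6-BALB/c WT and 109 in Cx30-/-. Its log2 ratio was 0.08 (-0.31 to 0.48) relative to C57BL6 WT and 1.49 (0.93 to 2.08) relative to C57BL6-BALB/c WT, and the WT libraries were -1.41 (-1.99 to -0.86) apart. Its call thus rested on 1 library under the minimum. Abcc12 had 39.3, 62.6 and 60.8 normalized counts.

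edgeR's quasi-likelihood test with Benjamini-Hochberg adjustment was run across all genes with the WT libraries pooled into 1 group, so that the spread was the difference between the WT libraries, that of their backgrounds included. It called 0 of the 42 members tested, and 9 of 17576 genes (0.0512%). The smallest adjusted p of a member in edgeR was 0.488, for Abcc6 (log2 ratio 0.78), and those of Abcb1a and Abcg2 were 0.641 (0.76) and 0.711 (0.56). In the same edgeR test the unadjusted p was under 0.05 for 2 members, Abcc6 and Abcg1 (log2 ratio -0.63), and for 8.69% of all genes. DESeq2 called 0 of the 25 members for which it gave an adjusted p, and 11 of 6787 genes (0.162%). Its unadjusted p was under 0.05 for Abcb1a and Abcc5, and for 3.77% of all genes.

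Other genes of the same pathways were read from lists of transporters and regulators, of which 27 of 29 genes reached the minimum. Their median log2 ratio in Cx30-/- was 0.07 against C57BL6 WT and 0.41 against C57BL6-BALB/c WT, and 0 were called against C57BL6 WT or between the WT libraries. Of all genes, 2.68% and 3.43% were called there. Against C57BL6-BALB/c WT, 2 were called higher in Cx30-/-, the endothelial organic anion carriers Slco1a4 (log2 ratio 1.55) and Slc22a8 (1.04). In that comparison 3.96% of all genes were called higher and 8.69% in either direction. Slco1a4 had a normalized count of 17533 in C57BL6 WT, 9777 in C57BL6-BALB/c WT and 28653 in Cx30-/-, the order of Abcb1a. The 10 sterol sensing and lipid acceptor genes past the minimum gave log2 ratios from -0.28 to 0.13 against C57BL6 WT and from -0.17 to 0.54 against C57BL6-BALB/c WT. Among the xenobiotic sensors, Nfe2l2 had 1463, 999 and 1764.5 normalized counts. The pregnane X receptor gene Nr1i2, known to control Abcb1a, stayed under the minimum with 13.1, 17.3 and 36.7 normalized counts. The ABC genes that carry another symbol, Tap1, Tap2 and Cftr, gave log2 ratios in Cx30-/- of -0.42, -0.16 and -0.22 against C57BL6 WT and of 0.43, 0.67 and -0.28 against C57BL6-BALB/c WT.

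Of the 39 members past the minimum in both Cx30-/- comparisons, 12 were higher in Cx30-/- than in either WT library and 19 were lower, where 37.1% of all genes were higher and 36.6% lower. In the full order of the 3 libraries, 9 members (23.1%) were lowest in C57BL6-BALB/c WT and highest in Cx30-/- (Abca1, Abcb1a, Abcc3, Abcc4, Abcc6, Abcd3, Abcg2 and Abcg3 among them), where 27.8% of all genes had this order. The 10 endothelial markers had it too, with a median log2 ratio in Cx30-/- of 0.19 against C57BL6 WT and 0.84 against C57BL6-BALB/c WT. The sum of the 8 pericyte markers had it as well, but only 4 of them singly (Pdgfrb, Rgs5, Higd1b and Anpep). So did the sums of the 6 fibroblast markers (5 singly), the 6 erythroid markers (4 singly) and the 6 neutrophil markers (4 singly). The order was therefore not particular to 1 cell type. The opposite order was seen in 16 members (41.0%), against 27.7% of all genes. Among these were Abca2, Abca3, Abca5, Abca7, Abca8a, Abca8b, Abcb6, Abcc1, Abcc10, Abcc5, Abcc8, Abcd2, Abcf3, Abcg1 and Abcg4. The summed neuronal markers had this order, as did 5 of the 8 singly, and 7 of the 8 neuronal markers were lower in Cx30-/- than in both WT libraries, with Stmn2 as the exception. The summed astrocyte markers had it too (38474 in C57BL6 WT, 38531 in C57BL6-BALB/c WT and 31377 in Cx30-/-), but only 1 of the 6 singly (Slc1a2). The summed oligodendrocyte markers were also lowest in Cx30-/-, with 51136, 45368 and 40706 in the same order of libraries. When the libraries were scaled to the summed endothelial markers, the log2 ratios in Cx30-/- became 0.24 and 0.25 for Abcb1a, 0.02 and 0.08 for Abcg2, 0.18 and 0.01 for Abcc4 and 0.21 and 0.34 for Abcc6, against C57BL6 WT and C57BL6-BALB/c WT. None of these 4 genes was then called in either comparison. They were picked, after their values were seen, from the 9 members with the order of the endothelial markers. The others of the 9 are not given under this scaling. The scaling lowers the ratio of every gene in both comparisons, so smaller ratios for genes that had been higher were set in advance. Under the same scaling the ratio of Cx30-/- to C57BL6-BALB/c WT changed its direction for Abcc9 (-0.51) and Abca4 (-0.60), and that of Abcc5 became -1.93. This scaling moved the median of all genes by -0.19 and -0.95 in the same comparisons. The share of each cell type in these differences was not tested.

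**Figure D3:**
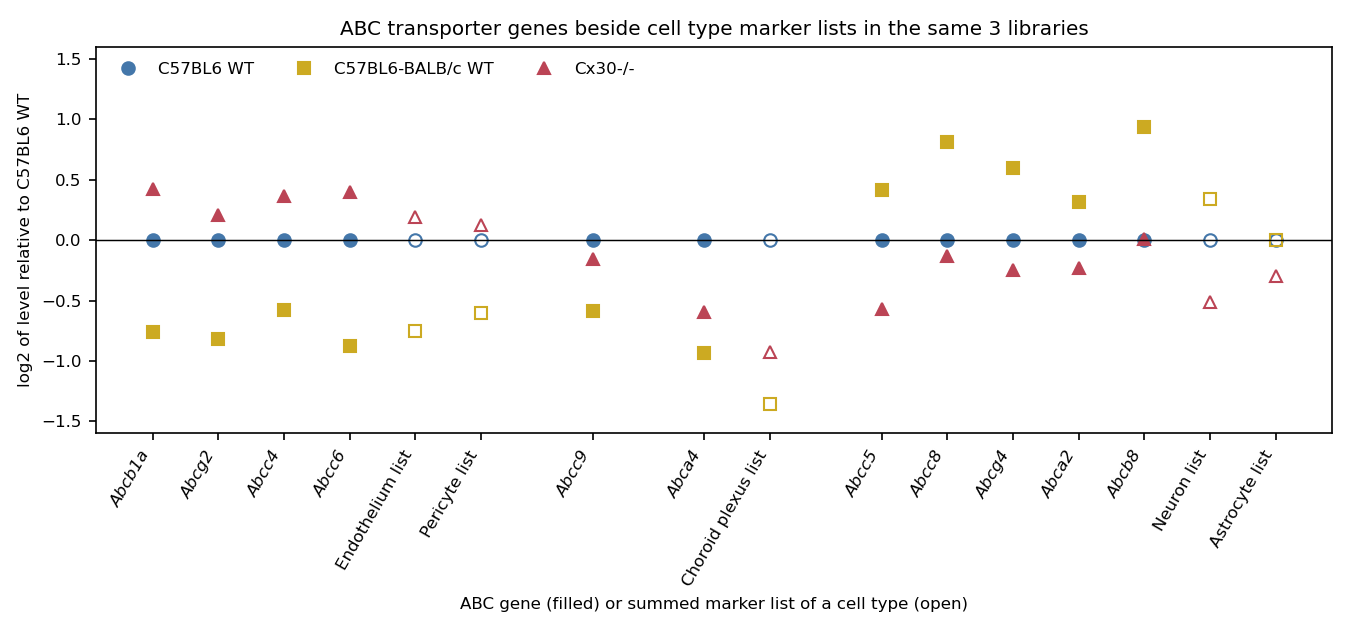
Log2 of the normalized count relative to C57BL6 WT (vertical axis) in the 3 libraries, for 11 ABC genes (filled symbols) and for the summed markers of 5 cell types (open symbols). The genes shown were chosen after their values were seen: Abcb1a, Abcg2, Abcc4, Abcc6 and the sums of the endothelial and pericyte lists are lowest in C57BL6-BALB/c WT and highest in Cx30-/-, while Abcc5, Abcc8, Abcg4, Abca2 and the sums of the neuronal and astrocyte lists are lowest in Cx30-/-. The sums of the fibroblast, erythroid and neutrophil lists, which are not drawn, had the order of the endothelial list.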

How the data were processed

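Vessels of 3 mice were pooled per group and sequenced as 50-base single reads from a kit that does not mark strand. According to the methods of the study, the authors trimmed and filtered reads, aligned them with Bowtie 0.12.7 within Eoulsan 1.1.6 and removed reads matching more than once. The authors deposited raw counts of alignments per Ensembl transcript, beside a fraction (that count over a library total), transcript length and uncovered bases. The methods name mm10, but the positions in the files were not used. Names, coordinates and sequences came from GENCODE M21 (GRCm38) through the identifiers, which named 69375 of 82813 transcripts (83.8%). The deposited length differed from that of GENCODE M21 for some members, such as Abcc9 (7538 against 6213 bases) and Abcg1 (3610 against 5832). Levels per kb used the deposited length, while exon counts, shared windows and overlaps follow GENCODE M21.

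Each gene took its row with the largest total, and 35 of the 50 members had more than 1 row. Scaling used size factors (median of ratios) and no pseudocount. Intervals are exact conditional binomial (Clopper-Pearson) at 95% (scipy 1.17.1). Members and gene lists were chosen with earlier results of these data known. Values are given for Abcb1a, Abcg2 and Abcc9, the 5 highest members per kb, the highest of each subfamily, called members, the pairs Abcb1a and Abcb1b, and Abca8a and Abca8b, and the 2 highest of each role, and others are named briefly or by count. edgeR 4.0.16 (filterByExpr, TMM, quasi-likelihood test) and DESeq2 1.42.0 ran in R 4.3.3, on all genes, after the edgeR step was tested on simulated data. Kcnj11 was not analysed here, and the values of 2 members are not reported here.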

Additional observations from a re-analysis of the deposited data

How the results depend on the processing

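No paired analysis was possible because each group has 1 library, and for the same reason no library could be left out. Other scalings were TMM, total count, upper quartile and the summed endothelial markers. Scaled to the endothelial markers, the medians of the members became -0.29 (Cx30-/- against C57BL6 WT), -1.09 (Cx30-/- against C57BL6-BALB/c WT) and 0.78 (between the WT libraries), with 1, 22 and 10 members called, where 3.19%, 46.5% and 26.9% of all genes were. In both Cx30-/- comparisons 1 member (Abca17) was called, against 2.37% of genes. The 22 were all lower in Cx30-/-, where the main scaling had 4 higher, and this scaling moved the median of all genes by -0.95 in that comparison. By total count the medians of the last 2 comparisons were 0.0012 and -0.10, and 3 members were called between the WT libraries (3.89% of genes). Without a minimum, 3, 7 and 6 of 48 members were called in the 3 comparisons, against 17.4%, 22.7% and 18.2% of all genes. With 50 counts required in both libraries, 0 were called between the WT libraries (2.34% of genes). At 1.5-fold, 4, 15 and 11 members were called, against 10.8%, 28.9% and 15.4% of all genes, and 2 of 39 (Abca17 and Abcg1) in both Cx30-/- comparisons, against 7.52%. edgeR with RLE scaling, without a filter or with summed rows, and DESeq2, also called 0 members, with unadjusted p under 0.05 for 2 or 3. Of 567 ratios of single named members under the alternatives, 107 moved by more than their interval of read sampling and 460 did not, and 72 of the 107 came from the endothelial scaling. The median interval of read sampling reached 0.12 to 0.13 (log2) to each side, so read depth did not limit most ratios, while the absence of replicate libraries limits all of them.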

Other observations

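Transcript rows of the same gene did not always give the same ratio. Among 25 members with several rows past the minimum, the rows spanned over 0.5 on the log2 scale in 2 members for Cx30-/- against C57BL6 WT, in 5 for Cx30-/- against C57BL6-BALB/c WT and in 2 between the WT libraries. The 8 rows of Abcb8 ran from -1.94 to -0.70 for Cx30-/- against C57BL6-BALB/c WT, and from -0.31 to 0.08 against C57BL6 WT. A short protein-coding row of Abcb8 had 86, 227 and 61 raw counts in C57BL6 WT, C57BL6-BALB/c WT and Cx30-/-, and the row used had 1450, 2240 and 1213. The 11 rows of Abcc5 ran from -0.96 to -0.40 against C57BL6 WT and from -1.56 to -0.85 against C57BL6-BALB/c WT, all in the same direction. For Abca9 the protein-coding row had a log2 ratio of 0.43 against C57BL6 WT and a processed transcript 1.496, on 23 and 54 raw counts. The 4 rows of Abcc9 spanned 0.00261 and 0.00666 in these comparisons. Since rows share exons and reads, they are not independent measurements.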
